A study of Danio rerio with 6 samples.

Results

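The antigen presentation genes described here are 9 transcripts of the adult zebrafish (Danio rerio) testis: cd74a, cd74b, mhc2dab and ciita of the class II pathway, and b2m, b2ml, mhc1uma, tap1 and tap2a of the class I pathway. They were found by pairing Ensembl identifiers with zebrafish symbols without regard to case, and all 9 were among the 32520 genes of the counts table (tap1 stands as TAP1 in the reference table). All 9 were also among the 26108 genes that passed the filter on low counts. The testes came from wild-type fish, 3 kept in water without added plastic and 3 kept in water to which nanoplastics made of polystyrene, a common plastic, were added every 24 h over 96 h. The fish were adults, and their exact age, strain and MHC genotype stand as not given in the sources used here. Libraries carry the replicate number and then the animal number of their titles, so the controls are 1-2, 2-2 and 3-1, and the exposed libraries are 2-2, 3-1 and 3-3. The labels do not say what the replicate number stands for, and they do not say that the fish came from separate tanks, so p-values measure the spread between these libraries.

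MHC class II molecules are pairs of an alpha and a beta chain that carry peptides from engulfed proteins to the surface of macrophages, dendritic cells and B cells. Their chains are escorted to the endosome by the invariant chain CD74, where proteases degrade CD74 and peptide takes its place. Class I molecules carry peptides from inside the cell on nearly all nucleated cells: the proteasome cuts the peptides, the TAP transporter pumps them into the endoplasmic reticulum, and a heavy chain binds them together with beta-2-microglobulin. In bony fishes class I and class II genes lie in separate places of the genome, and in zebrafish the region with class I U lineage genes, tap2 and immunoproteasome genes differs between fish in which genes it holds. Germ cells in the tubules of vertebrate testes carry little MHC, and the macrophages of the tissue between the tubules are its main class II bearing cells in mammals.

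Among the class II genes, cd74a, cd74b and ciita stood about 3- to 5-fold higher in the exposed testes and were above every control library in every exposed library, whereas mhc2dab varied too much to separate the groups. Among the class I genes, b2m and b2ml stood about 2-fold higher, mhc1uma went from near 0 to a few CPM (counts per 1000000), tap1 showed no separation, and tap2a was lower in every exposed library. The median log2 fold change was 2.08 over the 4 class II genes and 0.85 over the 5 class I genes, against 0.04 over all genes tested. None of these differences passed edgeR's quasi-likelihood test adjusted over all genes, whereas DESeq2 called cd74a, cd74b, ciita and mhc1uma higher. Directions given here describe the 6 libraries. In bulk tissue, more cells of a type and more RNA per cell cannot be told apart.

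**Figure D1:**
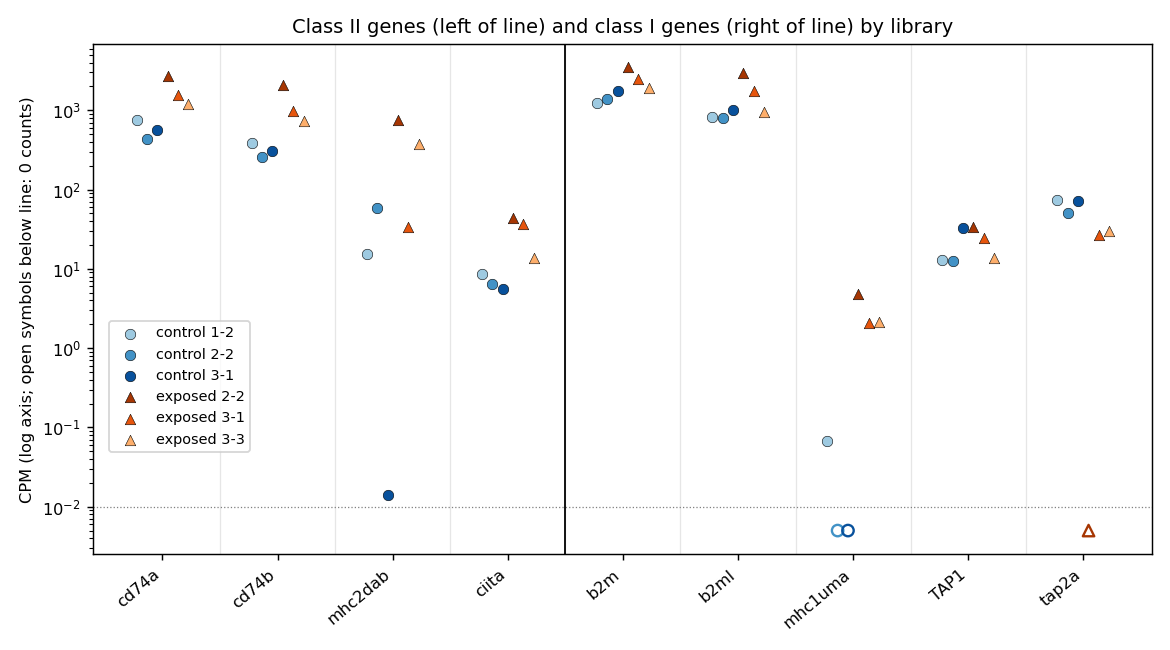
Level of each of the 9 genes in each library, in TMM-scaled CPM on a log axis, with circles for the 3 control and triangles for the 3 exposed libraries, and open symbols below the dotted line for 0 counts. The exposed symbols of cd74a, cd74b, ciita, b2m and mhc1uma all lie above the control symbols, those of tap2a all lie below, and the symbols of mhc2dab, b2ml and tap1 overlap.

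Levels are CPM after TMM scaling, a scaling that sets the bulk of genes equal between libraries. Because no transcript lengths were used, a level is compared between libraries of the same gene and not between genes. Log2 fold changes are exposed over control ± SE from edgeR's quasi-likelihood test, with p-values adjusted by Benjamini-Hochberg over the 26108 genes.

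In the class II pathway the chaperones come first. The level of cd74a, a zebrafish form of the invariant chain, was 759.5, 431.1 and 558.2 CPM in controls 1-2, 2-2 and 3-1, and 2733, 1579 and 1216 CPM in exposed 2-2, 3-1 and 3-3. The groups did not overlap, and exposed 2-2 was the highest library. The mean was 583 ± 166 CPM (SD, n = 3) in controls and 1843 ± 792 CPM (SD, n = 3) in exposed testes, a log2 fold change of 1.66 ± 0.36 (SE), or 3.16-fold. The edgeR adjusted p was 0.156.

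Its paralog cd74b, the other invariant chain gene, gave 390.5, 260.2 and 309.9 CPM in the controls and 2056, 984 and 724.7 CPM in the exposed libraries. The order of the exposed libraries was that of cd74a, and the groups were again apart. The log2 fold change was 1.97 ± 0.40, or 3.92-fold, with an edgeR adjusted p of 0.150. The ratio of cd74b to cd74a lay between 0.514 and 0.604 in controls and between 0.596 and 0.752 in exposed libraries, so these ranges overlapped.

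The class II transactivator ciita, the factor that switches on class II genes in mammals, was measured at 8.61, 6.54 and 5.63 CPM in controls and at 44.5, 36.5 and 13.8 CPM in exposed libraries. Exposed 3-3 was nearest to the controls and exposed 2-2 farthest from them. The log2 fold change of 2.19 ± 0.45, or 4.56-fold, had an edgeR adjusted p of 0.150. Without exposed 3-3, cd74b and ciita were the members that passed the edgeR quasi-likelihood test, with Benjamini-Hochberg adjusted p of 0.0383 and 0.0226, and cd74a stood at 0.0514. In that fit 396 genes were called over all genes, against 0 with all 6 libraries.

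The beta chain gene mhc2dab varied widely between libraries of the same group. Its level was 15.2 CPM in control 1-2, 59.0 CPM in control 2-2 and 0.0141 CPM, which is 1 count, in control 3-1. In the exposed testes it was 747.6, 33.6 and 376.6 CPM in 2-2, 3-1 and 3-3. Exposed 3-1 lay below control 2-2, so the groups overlapped. Its log2 fold change of 3.96 ± 2.19 had an edgeR adjusted p of 0.444. The most similar profiles over the 6 libraries, by the root mean square distance between centred log2 CPM values, were those of si:dkey-14d8.6 at 1.716, ponzr6 at 1.734 and si:ch211-233m11.1 at 1.806, among 20592 genes ranked. Each of these genes had 0 counts in control 3-1, where mhc2dab had 1. The distance from mhc2dab to its chaperone cd74a was 4.188.

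By contrast cd74a had close companions. The nearest were gramd2aa at a distance of 0.146, fras1 at 0.151 and the immunity-related GTPase gene irgf1 at 0.153. Among the members, which were not ranked with the other genes, cd74b was the nearest at 0.169. The distance from cd74a to ciita was 0.405, to b2ml 0.436 and to b2m 0.523. These distances describe likeness over the same 6 libraries, whose depths and scaling differ between libraries but are common to all genes.

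On the class I side, b2m, the light chain shared by class I molecules, gave 1223, 1378 and 1772 CPM in controls and 3503, 2464 and 1909 CPM in exposed libraries. The groups were apart, but exposed 3-3 exceeded control 3-1 by a small margin. This is a log2 fold change of 0.85 ± 0.28, or 1.80-fold, with an edgeR adjusted p of 0.212. The most similar profiles were those of REEP5 at 0.060, creb3l3l at 0.063 and lrp10 at 0.067, and b2ml was at 0.252.

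The related light chain gene b2ml was at 819, 789 and 1003 CPM in controls and at 2967, 1767 and 950.3 CPM in exposed libraries. Here exposed 3-3 fell among the controls. Its log2 fold change was 1.12 ± 0.39 with an edgeR adjusted p of 0.224, and 0.64 without exposed 2-2.

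The heavy chain gene mhc1uma, of the U lineage by its name, was almost silent in control testes, with 6 counts in control 1-2 and 0 counts in controls 2-2 and 3-1. A count of 0 allows up to 3 counts, or 0.0382 and 0.0422 CPM in those libraries. In the exposed libraries it had 496, 193 and 245 counts, which are 4.85, 2.05 and 2.14 CPM. All exposed libraries were thus above all controls, at low absolute counts. Pooled over libraries of a group, the exposed level was 119.7 times the control level (95% exact interval 54.8 to 327, counting error only). Its edgeR adjusted p was 0.156.

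The TAP genes showed another picture. The level of tap1, the first subunit of the peptide transporter, was 12.8, 12.7 and 32.7 CPM in controls and 33.3, 24.2 and 13.8 CPM in exposed libraries. Both groups covered nearly the same range. A log2 fold change of 0.29 ± 0.47 had an edgeR adjusted p of 0.822. Without exposed 2-2 the log2 fold change was -0.03, a change of sign, and without control 3-1 it was 0.88.

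The second transporter subunit, tap2a, gave 73.6, 51.1 and 71.7 CPM in controls, and 27.0 and 30.0 CPM in exposed 3-1 and 3-3. Exposed 2-2 had 0 counts, which allows up to 0.0294 CPM. Every exposed library was below every control. With all libraries the log2 fold change was -1.78 ± 1.76, with an edgeR adjusted p of 0.697. Without exposed 2-2 it was -1.20 ± 0.27 with an edgeR adjusted p of 0.279.

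Counted together, 0 of the 9 genes had an edgeR adjusted p under 0.05, and the share over all genes was 0%. At an unadjusted p under 0.05, 6 of 9 were higher, namely cd74a, cd74b, ciita, b2m, b2ml and mhc1uma, against 9.68% of all genes tested. None of the 9 was lower at that threshold, against 6.79% of all genes. The groups did not overlap with exposed higher for 5 of 9, against 12.8% of all genes, and with exposed lower for tap2a alone, against 10.9%. DESeq2 called 4 of 9 higher after adjustment, against 5.51% of 24316 genes. These 4 were cd74a (DESeq2 adjusted p = 0.000431), cd74b (7.68e-05), ciita (0.000352) and mhc1uma (1.79e-05). Over the 19 alternatives tried for each gene, adjusted p ran from 0.000431 to 0.377 for cd74a, from 7.68e-05 to 0.377 for cd74b, from 0.000352 to 0.377 for ciita and from 1.79e-05 to 0.377 for mhc1uma. The bias-adjusted form of edgeR's test called 0 of 9 higher, against 0.249% of all genes. Without exposed 2-2, 4 of 9 were higher at an unadjusted p under 0.05, against 6.32% of 26959 genes, and tap2a was lower, against 4.79%.

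**Figure D2:**
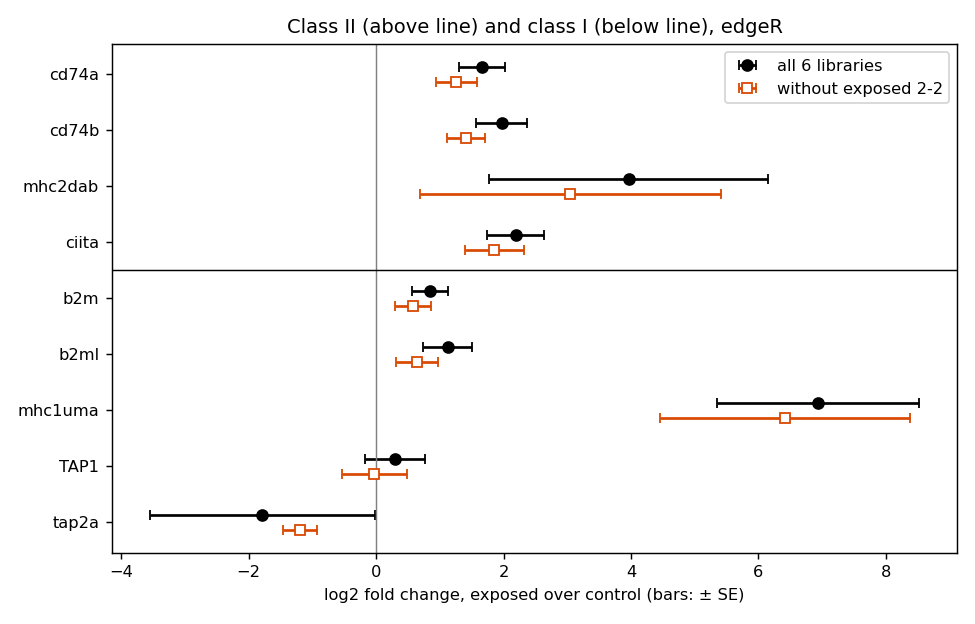
Log2 fold change (exposed over control) ± SE of each of the 9 genes from edgeR, with all 6 libraries and without exposed 2-2. The 4 class II values lie between 1.66 and 3.96 with all libraries, tap1 is near 0 in both fits, and the error of tap2a shrinks from 1.76 to 0.27 when exposed 2-2 is left out.

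Class I and class II genes were then set against each other. The class II median log2 fold change exceeded that of class I by 1.23, by 1.05 without exposed 2-2 and by 1.09 without tap2a. Taken within each of the 6 libraries, class II minus class I median log2 CPM had a pooled SD of 1.12. That SD is of levels and not of fold changes, so it does not measure the error of the 1.23. Ratios within a library do not depend on its scaling. The ratio of cd74a to b2m was 0.621, 0.313 and 0.315 in controls and 0.780, 0.641 and 0.637 in exposed libraries. Every exposed ratio was above every control ratio, although exposed 3-1 and 3-3 were only a little above control 1-2. The mean log2 difference was 0.79, and an exact two-sided permutation test gave p = 0.1, the smallest that 3 against 3 libraries allow. With both invariant chains over both light chains the ratio was 0.563, 0.319 and 0.313 in controls and 0.740, 0.606 and 0.679 in exposed libraries.

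Summed chains gave a similar order. Class II chains relative to class I heavy chains stood at 0.187, 0.183 and 0.0982 in controls and at 0.768, 0.211 and 0.368 in exposed libraries, again without overlap. Exposed 3-1 was close to the highest control. Relative to cd74a and cd74b together, the class II chains did not separate the groups. The ratio of the invariant chains to the chains was 2.59 to 4.79 in controls and 2.39 to 5.78 in exposed libraries.

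**Figure D3:**
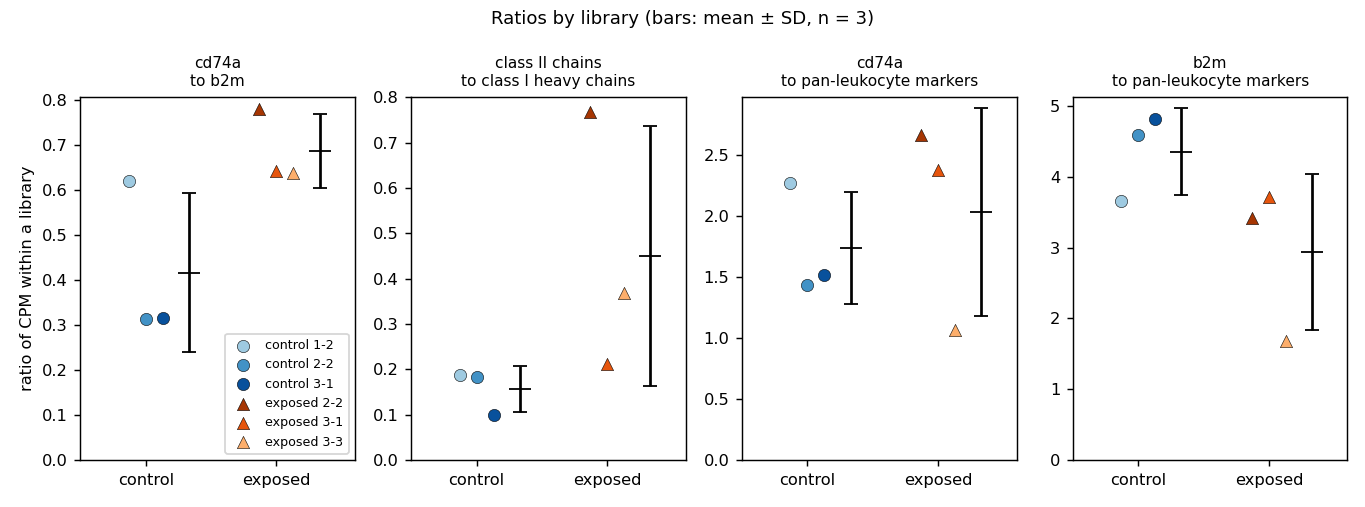
Ratios of class II to class I levels and of members to leukocyte markers in each library, on linear axes from 0, with the mean ± SD of the 3 libraries of each group. The ratio of cd74a to b2m lies between 0.637 and 0.780 in exposed and between 0.313 and 0.621 in control libraries, and the ratios to pan-leukocyte markers overlap between the groups.

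In the wider class II family most fold changes were above 0, and some of the chains reached an unadjusted p under 0.05. The table held 16 class II chain genes, of which 13 passed the filter. Of these 11 had a log2 fold change above 0 and 2 below, with a median of 3.74, and 5 had an unadjusted p under 0.05, all higher, beside 9.68% of all genes. DESeq2 called 4 higher, beside 5.51% of all genes. Without exposed 2-2 the median was 2.07 and 3 reached that unadjusted p, all higher, beside 6.32% of all genes in that fit. The summed level of the 16 genes was between 206 and 267 CPM in controls, and 2007, 443.5 and 738.7 CPM in exposed 2-2, 3-1 and 3-3.

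The alpha chain gene mhc2daa was at 31.2, 83.6 and 81.3 CPM in controls and at 1011, 165 and 328.5 CPM in exposed libraries. The groups were apart, with a log2 fold change of 2.94 ± 0.77 and an edgeR adjusted p of 0.179, and a log2 fold change of 1.92 without exposed 2-2. The beta chain gene mhc2dbb went from 0.448, 0.841 and 0.816 CPM to 20.4, 6.06 and 1.59 CPM. Other chains followed single fish. Levels of mhc2dga and mhc2dgb were high in exposed 3-1, at 30.4 and 84.1 CPM, and low in exposed 2-2 and 3-3. There mhc2dga was at 0.783 and 0.515 CPM and mhc2dgb at 1.19 and 1.94 CPM. In the controls mhc2dga was between 7.78 and 13.8 CPM. The gene mhc2dhb was at 79.5 CPM in exposed 3-1, within the control range of 75.3 to 110 CPM, and at 12.9 and 7.07 CPM in exposed 2-2 and 3-3. So the libraries with the most mhc2dab among the exposed had the least mhc2dga, mhc2dgb and mhc2dhb. Another pattern was that of mhc2dca, with 0 counts in every control and 315, 233 and 8 counts in exposed 2-2, 3-1 and 3-3. Its level in exposed 3-3, 0.0698 CPM, was near the floor of 3 counts, and the gene did not pass the filter.

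**Figure D4:**
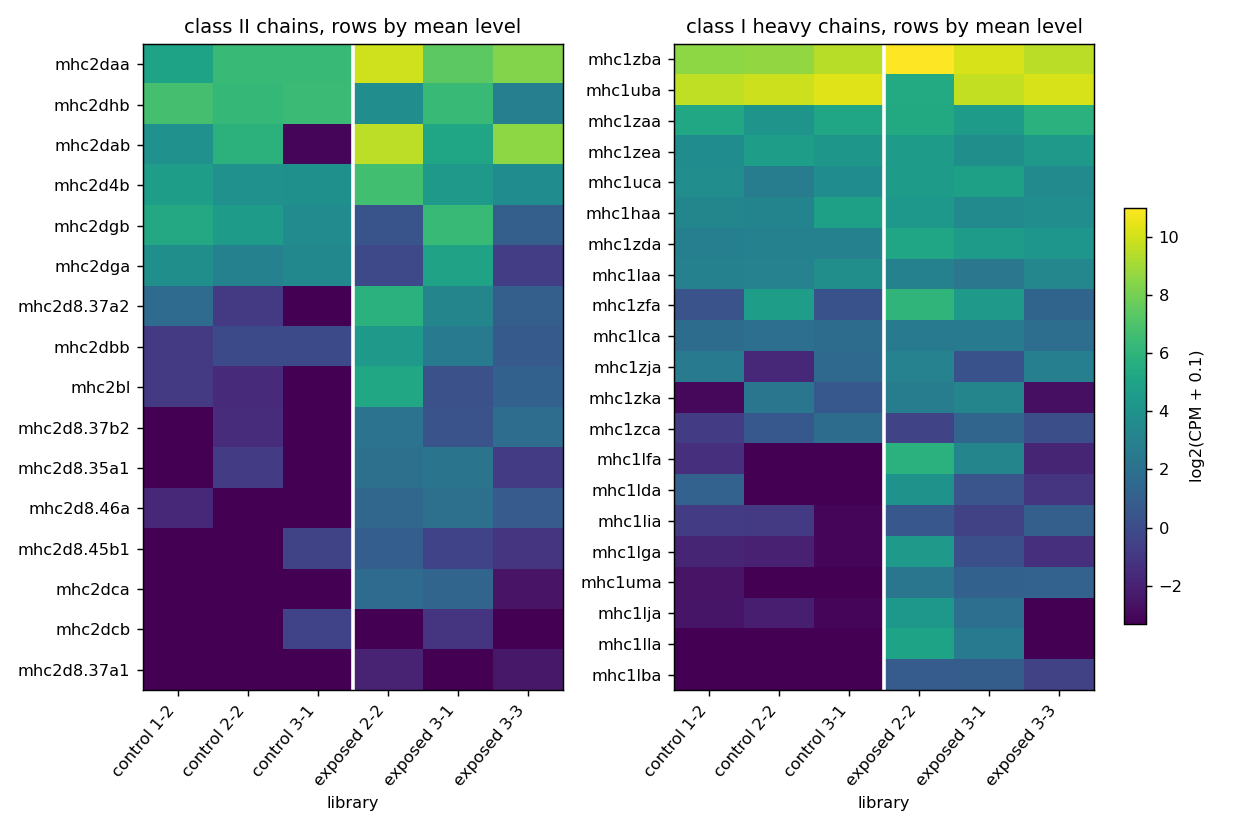
Level of each class I heavy chain and class II chain gene in each library, shown as colour on a log scale of CPM. Exposed 3-1 differs from exposed 2-2 and 3-3 in mhc2dga, mhc2dgb and mhc2dhb, and exposed 2-2 differs from all others in mhc1uba (43.0 CPM against 806 or more).

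Of 21 class I heavy chain genes, 20 passed the filter, 16 with a log2 fold change above 0 and 4 below. The median was 1.37, and 0.70 without exposed 2-2. An unadjusted p under 0.05 was reached by 7, all higher, beside 9.68% of all genes. Without exposed 2-2 it was reached by 4, all higher, beside 6.32% of all genes in that fit. DESeq2 called 6 of the 20 higher, beside 5.51% of all genes. The sum of all heavy chains ranged from 1281 to 2094 CPM in controls and from 2005 to 2613 CPM in exposed libraries, so the groups overlapped.

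In exposed 2-2 the sums of the U and Z lineages went opposite ways, mostly through mhc1uba and mhc1zba. The 3 U lineage genes summed to between 819 and 1285 CPM in controls, to 851 and 1137 CPM in exposed 3-1 and 3-3, and to 71.7 CPM in exposed 2-2. The U lineage gene mhc1uba made up most of this, with 806, 946 and 1273 CPM in controls and 43.0, 820 and 1123 CPM in exposed libraries. The U lineage genes mhc1uca and mhc1uma were above every control in exposed 2-2, at 23.8 and 4.85 CPM. The sum of the 8 Z lineage genes went the other way, at between 439 and 764 CPM in controls and at 2359, 1203 and 839 CPM in exposed 2-2, 3-1 and 3-3. Of these genes mhc1zba made up most of each sum, at 373, 405.5 and 694 CPM in controls and at 2178, 1109 and 733 CPM in exposed libraries (log2 fold change 1.45 ± 0.44, and 0.91 without exposed 2-2). The gene mhc1zda had the smallest p of the heavy chains (edgeR adjusted p = 0.139), with 7.10, 7.88 and 7.79 CPM in controls and 34.1, 23.5 and 18.5 CPM in exposed libraries. Among 9 L lineage genes, mhc1lba had 0 counts in all controls. Its mean over the exposed libraries, 1.36 CPM, was 35.8 times the mean control floor of 3 counts per library. Exposed 2-2, 3-1 and 3-3 were at 1.72, 1.765 and 0.593 CPM.

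Genes that supply and load class I had medians nearer to that of all genes. Of 15 transport and loading genes, 10 had a log2 fold change above 0 and 5 below, with a median of 0.25. Without exposed 2-2 the median was 0.07, with 1 gene higher and 2 lower at an unadjusted p under 0.05. The shares over all genes in that fit were 6.32% and 4.79%. With all libraries 1 of the 15 was higher at an unadjusted p under 0.05, beside 9.68% of all genes. This was erap2, a peptide-trimming enzyme of the endoplasmic reticulum. Its log2 fold change was 1.07 ± 0.33 with an edgeR adjusted p of 0.195, and 0.66 without exposed 2-2. The chaperone gene CANX stood at 0.46 ± 0.34 and the disulfide isomerase gene PDIA3 at 0.01 ± 0.37. Of 7 immunoproteasome genes, 3 were above 0 and 4 below, with a median of -0.63, and PSME2, an activator subunit, stood at 0.97 ± 0.40 with an edgeR adjusted p of 0.284. Without exposed 2-2, in which 4 of these genes had 0 counts, the median was -0.10. Of 6 class I regulators, 5 were above 0. The class I transactivator gene nlrc5 was at 31.7, 30.7 and 30.1 CPM in controls and at 65.9, 59.4 and 42.5 CPM in exposed libraries, a log2 fold change of 0.86 ± 0.23 with an edgeR adjusted p of 0.171.

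In the endosomal arm, which prepares class II molecules for peptide, 15 of 19 genes had a log2 fold change above 0, with a median of 0.88, and 8 reached an unadjusted p under 0.05, all higher, beside 9.68% of all genes. DESeq2 called 7 higher, beside 5.51% of all genes. The cathepsin S gene ctss2.2, a protease that degrades the invariant chain in mammals, was at 32.9, 34.1 and 13.7 CPM in controls and at 134.9, 69.2 and 70.7 CPM in exposed libraries (log2 fold change 1.77 ± 0.42). The legumain gene LGMN, another endosomal protease, was at 173.5, 175.9 and 200.1 CPM in controls and at 464.5, 332.3 and 276.6 CPM in exposed libraries. Both were apart between the groups. The median of the endosomal list without exposed 2-2 was 0.73. Other factors act with CIITA at class II promoters in mammals. Of 10 class II regulators tested, 3 were above 0 and 7 below, with a median of -0.03. At an unadjusted p under 0.05, 1 of the 10 was higher, ciita, and 1 was lower. The shares over all genes were 9.68% and 6.79%, so these counts were near them. The log2 fold change of rfx5, taken from the list after its values were seen, was -0.14 ± 0.20, and that of NFYA (ENSDARG00000042004), with the smallest p of the rest, was -0.61 ± 0.24. Among 7 co-stimulation and receptor genes the median was 0.00, and CD276 was lower in every exposed library, with a log2 fold change of -0.88 ± 0.29 and an edgeR adjusted p of 0.212.

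The 0 counts of tap2a in exposed 2-2 did not stand alone. In the gene order of the RefSeq assembly GRCz12tu, which is not the build of the counts, the immunoproteasome genes psmb8a (PSMB8), psmb13a, psmb12 and psmb9a (PSMB9) precede tap2a directly, and mhc1uba comes before them. All 4 proteasome genes had 0 counts in exposed 2-2. In the other 5 libraries PSMB8 was between 38.8 and 85.9 CPM, psmb13a between 26.0 and 55.7 CPM, and psmb12 between 22.6 and 32.0 CPM. PSMB9 was between 29.9 and 45.7 CPM in controls and at 48.4 CPM in exposed 3-3, and exposed 3-1 had the lowest level of these 5 libraries. Genes on both sides kept reads in exposed 2-2. The tapasin gene tapbp.1 was at 20.7 CPM there, just under the 21.6 to 37.3 CPM of the other libraries, tapbp.2 was at 17.6 CPM, and brd2a, the next gene after tap2a, was at 129 CPM, within the 98.3 to 146 CPM of the other libraries.

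Genes with 0 counts in a single library and at least 10 CPM in each of the other 5 were counted for comparison. There were 6 in exposed 2-2, of which 5 were tap2a and these 4 neighbours, and 0, 1 and 1 in controls 1-2, 2-2 and 3-1, 0 in exposed 3-1 and 2 in exposed 3-3. Whether exposed 2-2 carried another form of the region, whose reads the reference genes would not take, was not tested.

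**Figure D5:**
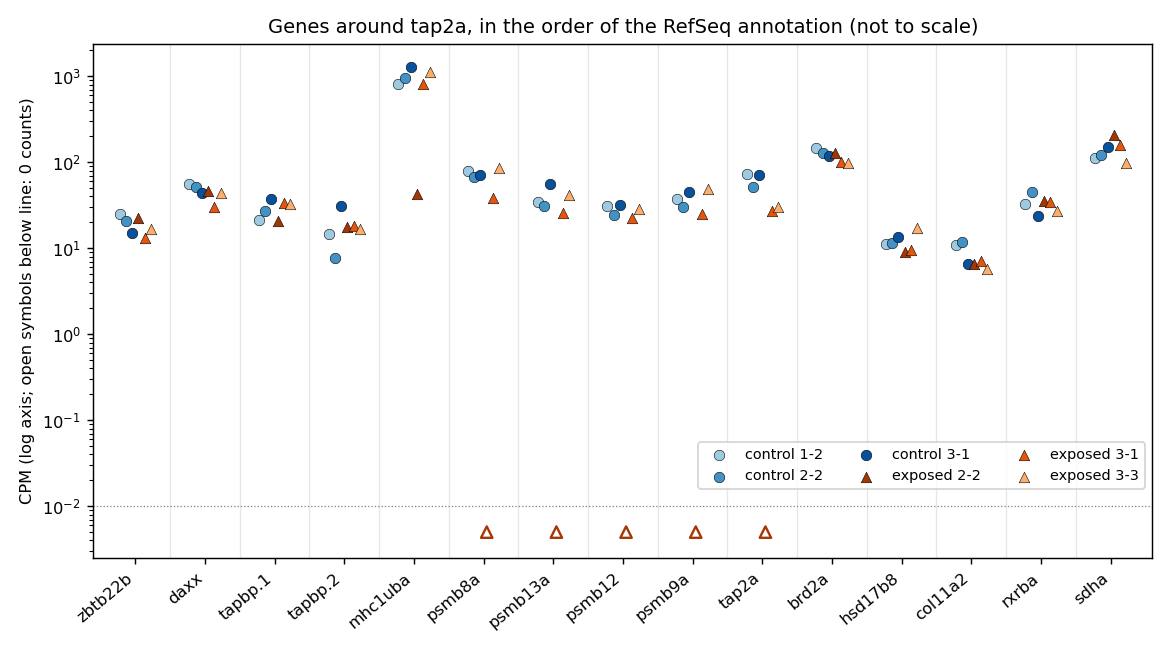
Levels in CPM (log axis) of the genes around tap2a in each library, in the order of the RefSeq assembly, with open symbols for 0 counts. In exposed 2-2 the 4 proteasome genes and tap2a are at 0 and mhc1uba is at 43.0 CPM, while daxx (46.6 CPM) on one side and brd2a (129 CPM) on the other are within the range of the other libraries.

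Markers of immune cells stood higher in the same libraries as the class II genes. All 11 pan-leukocyte markers had a log2 fold change above 0 and an unadjusted p under 0.05, beside 9.68% of all genes. DESeq2 called all 11 higher, beside 5.51% of all genes, and the median of the 11 was 1.40. Their summed level was 300 to 368 CPM in controls and 664 to 1141 CPM in exposed libraries, and none of the 11 was at 0 in all controls. Among them the leukocyte integrin gene itgb2 was at 36.7, 34.9 and 48.9 CPM in controls and at 87.3, 97.2 and 134.3 CPM in exposed libraries. Of 20 macrophage and dendritic cell markers 17 were above 0. An unadjusted p under 0.05 was reached by 12, all higher, beside 9.68% of all genes. The 20 markers had a median of 1.16 (1.21 without exposed 2-2). Their sum ranged from 294 to 666 CPM in controls and from 897 to 1734 CPM in exposed libraries. The macrophage pore gene MPEG1 (ENSDARG00000043093) was at 7.29, 3.93 and 24.3 CPM in controls and at 172.6, 93.8 and 19.5 CPM in exposed libraries, where exposed 3-3 fell within the control range. Another MPEG1 gene (ENSDARG00000055290) was apart, at 14.0, 11.3 and 11.1 CPM in controls and 109.2, 60.8 and 31.9 CPM in exposed libraries. The MPEG1 gene ENSDARG00000078569, at 0.229 CPM or less in controls, overlapped. The apolipoprotein gene apoeb was at 375.9, 92.8 and 243.4 CPM in controls and at 1021, 873.5 and 384 CPM in exposed libraries.

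Relative to these markers cd74a, ciita and b2m did not separate the groups. The ratio of cd74a to the summed pan-leukocyte markers was 2.27, 1.44 and 1.52 in controls and 2.66, 2.38 and 1.07 in exposed libraries. That of ciita was 0.0258, 0.0218 and 0.0153 in controls and 0.0433, 0.0550 and 0.0121 in exposed libraries. For ciita, exposed 2-2 and 3-1 were thus above every control and exposed 3-3 was below every control. The ratio of b2m to the same markers was 3.66, 4.59 and 4.82 in controls and 3.41, 3.71 and 1.67 in exposed libraries. Exposed 3-3, which had the least cd74a and b2m of the exposed libraries, had the highest pan-leukocyte sum. That rank rests on the CXCR4 gene ENSDARG00000041959, at 218.3 of 1141 CPM there and 78.0 of 1026 CPM in exposed 2-2. The ratio of cd74a to the macrophage and dendritic cell markers also overlapped, at 0.839 to 1.47 in controls and 1.09 to 1.58 in exposed libraries. That marker sum leans on apoeb, with 92.8 of 293.6 CPM in control 2-2 and 375.9 of 582.8 CPM in control 1-2. In exposed 2-2 apoeb was 1021 of 1734 CPM, so this ratio depends heavily on a single gene.

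Markers of lymphocytes and neutrophils were also mostly above 0: 7 of 10 B cell markers with a median of 1.03, 13 of 13 T and NK cell markers with a median of 1.44, and 6 of 7 neutrophil markers with a median of 0.99. At an unadjusted p under 0.05, 4 B cell, 2 T and NK cell and 3 neutrophil markers were higher, beside 9.68% of all genes. DESeq2 called 2, 1 and 3 of them higher, beside 5.51% of all genes. Summed, B cell markers reached 58.5 to 111 CPM in controls and 125 to 238 CPM in exposed libraries, T and NK markers 30.5 to 82.0 and 111 to 300.2 CPM, and neutrophil markers 106 to 136 and 154 to 535 CPM. In exposed 3-3 nkl.2 alone was 206.2 of the 300.2 CPM of T and NK markers. The part of these markers in the class II levels was not tested.

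Markers of epidermis and of red blood cells also differed between the libraries. Of 25 epidermis markers, 24 were above 0. An unadjusted p under 0.05 was reached by 19, all higher, beside 9.68% of all genes. The 25 markers had a median of 3.85 (2.41 without exposed 2-2). Their sum was 1060 to 2749 CPM in controls and 18070, 12278 and 1847 CPM in exposed 2-2, 3-1 and 3-3, the order that cd74a and b2m also had. In exposed 3-3 cd74a was at 1216 CPM, against 759.5 CPM in the highest control. The epidermis sum there lay within the control range, which leans on krt91, with 1791 of 2749 CPM in control 2-2. The sum hides single markers: 17 of 25 were above every control in every exposed library, beside 12.8% of all genes. In exposed 3-3 krt91 was at 748 CPM, within its control range of 516 to 1791 CPM. The level of krt5 there was 178.9 CPM, against 20.1 to 30.2 CPM in controls. Red blood cell markers were above 0 for 9 of 9, with sums of 862 to 2243 CPM in controls and 3243 to 4556 CPM in exposed libraries. Of the 9, 5 reached an unadjusted p under 0.05, all higher, beside 9.68% of all genes. Their sum is mostly hbaa1, with 1826 of 2243 CPM in control 1-2 and 4031 of 4556 CPM in exposed 3-1. No marker of these lists was at 0 in all controls, and their part in the levels of the members was not tested. Germ cell markers, which mark the labelled tissue, were abundant in every library and lower in the exposed ones: 12 of 12 tested were below 0, with a median of -0.90 and sums of 6601 to 7082 CPM in controls and 2872 to 4619 CPM in exposed libraries. Leydig cell markers had 7 of 8 below 0, with sums of 2133 to 4361 and 1452 to 2500 CPM. Sertoli cell markers had 5 above and 6 below 0, with sums of 2833 to 3354 CPM in controls and 2011 to 2758 CPM in exposed libraries.

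Library totals ran from 76205591 to 108273937 counts, and each exposed library was deeper than each control. The median log2 fold change over all genes was at most 0.0629 in size under 3 other scalings of the counts, beside 0.04 under TMM.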

How the data were processed

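Raw counts, as whole numbers per Ensembl gene, were deposited for 6 testis libraries in 1 table, of which 0 columns were left out. Per the labels, RNA was extracted with Trizol and Novogene made poly(A)-enriched libraries. Alignment used STAR and the build GRCz11, per the submitters' processing notes. The STAR version, counting tool, annotation, use of strand, handling of mates and of reads shared by paralogs: not given in the sources used here. MHC genes are similar families, so their counts are uncertain where reads could be split, and intervals are too narrow if both mates were counted.

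A reference table gave symbols to 29201 of 32520 identifiers. The 9 genes and all lists were chosen with earlier results of these data known. Of the listed symbols 55 had no row, and 30 entries were matched through a symbol shared by paralogs. The chain lists were widened to every symbol beginning mhc1 or mhc2 once the symbols had been seen. By rule the text could name the members, the 2 most abundant genes and the 2 with the smallest p of each pathway list, the 2 most abundant of each marker list, and the 3 genes nearest in profile to cd74a, b2m and mhc2dab. Other names were chosen after their values were seen: mhc2dga, mhc2dgb, mhc2dhb, mhc2dca, mhc1lba, mhc1lla, mhc1uca, tap2t, rfx5, CXCR4, the neighbours of tap2a and the MPEG1 genes besides ENSDARG00000043093.

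Counts were filtered with filterByExpr, scaled by TMM to CPM and tested with edgeR 4.0.16 (glmQLFit, robust; glmQLFTest, two-sided) with group as the only term, adjusted by Benjamini-Hochberg at 0.05. The SE is the size of the log2 fold change over the root of the F statistic. For profile distances, a prior count of 2 was added before taking log2 CPM. Depth was 76205591 to 108273937 counts, where 3 counts equal 0.0262 to 0.0422 CPM. The most similar libraries still differed beyond sampling noise, with a chi-square of 161 for each degree of freedom. Alternatives were DESeq2 1.42.0, limma 3.58.1 voom, the bias-adjusted edgeR method, thinned and halved counts, other scalings and filters, a replicate block and each library left out. Added after seeing the data were the class I median without tap2a and DESeq2 without each library. The test was tried on simulated counts. Software was Python 3.11.15 (scipy 1.17.1, pandas 2.3.3, numpy 2.4.6, matplotlib 3.10.9) and R 4.3.3.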

Additional observations from a re-analysis of the deposited data

How the results depend on the processing

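The number of genes called over all genes was 0 and moved with the method. It was 1 under relative log expression scaling, under upper quartile scaling, under library totals, with counts thinned and with counts halved. It was 12 without a filter, 1696 under DESeq2, 70 under the bias-adjusted method, 5 with the replicate block and 4 with exposed 3-1 and 3-3 summed. Leaving out a library gave from 0 to 396 genes. It stayed 0 with a mean of at least 1 CPM, under voom and without the robust option. The cause was not tested.

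The count of members higher at an unadjusted p under 0.05 ran from 4 to 7. It was 4 with the replicate block and without control 1-2, control 2-2 or exposed 2-2. Over all genes the share at that p was 9.68% in the main fit and 6.32% without exposed 2-2. That share was not counted under the other settings. The class II minus class I median stayed above 0, from 0.99 to 1.52, and was 1.51 with the replicate block. These alternatives reuse the same libraries, so this range does not measure the spread between fish. Deviations of same-numbered control and exposed libraries from their group means had correlations of -0.01, 0.02 and -0.03. These values do not show what the number stands for. Whether exposed 3-1 and 3-3, which share a number, also shared a tank or batch was not tested. The log2 fold change of TAP1 turned to -0.03 without exposed 2-2, the only change of sign among the members, and ran to 0.88 without control 3-1. That of tap2a ran from -1.20 to -5.29 and that of mhc2dab from 3.05 to 7.51. DESeq2 called 4 to 6 members higher without each library in turn. The share over all genes was not counted in those fits, so these counts have no background beside them. At these depths mhc1uma rests on few control counts.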

Other observations

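The balance of class II alpha to beta chains also differed between libraries. Summed alpha chain counts over beta chain counts stood at 0.252, 0.528 and 0.804 in controls and at 1.16, 0.946 and 0.822 in exposed libraries, so that the lowest exposed value was just above the highest control. The beta sum leans on mhc2dhb in controls, at 109.9 of 191.7, 75.3 of 174.9 and 85.3 of 114 CPM. In exposed 2-2, 3-1 and 3-3 mhc2dhb was at 12.9 of 928.7, 79.5 of 227.9 and 7.07 of 405.4 CPM. The separation of this ratio thus depends heavily on a single gene. The ratio of mhc2dab to mhc2daa was 0.488, 0.705 and 0.000173 in controls and 0.739, 0.203 and 1.15 in exposed libraries. These values are not per transcript length, so that only the change between libraries can be read. The gene mhc1lla, named after its values were seen, had 0 counts in all controls and in exposed 3-3, 31.3 CPM in exposed 2-2 and 5.69 CPM in exposed 3-1.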
